A study of Mus musculus with 9 samples.

Results

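The genes described here are those of the mitochondrial genome, taken as every gene of the deposited count table whose symbol begins with mt-. There are 37 of them among 57010 genes in the table: 13 messenger RNA genes, 2 ribosomal RNA genes and 22 transfer RNA genes. RNA was sequenced from liver of male BALB/c mice in 9 libraries, 3 in each of 3 groups. CON libraries come from mice labelled as having no treatment, and CPT libraries from mice labelled with cisplatin-induced acute liver injury, cisplatin being a platinum drug that crosslinks DNA. AT3 libraries carry the same treatment label as CPT. AT3 is not spelled out there. The title of the series names atractylenolide III, a sesquiterpene lactone of plants. Its labels give no dose, time or age. No label says whether the 3 libraries of a group come from 3 mice, so p-values measure only the spread among libraries, which may be technical. Libraries held 21485021 to 28480479 estimated counts, 3 counts correspond to 0.105 to 0.140 CPM (counts scaled to a common library total, here before TMM scaling), and replicates differed by more than sampling noise.

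The mitochondrial genome is a circular DNA that encodes core subunits of the respiratory chain and of ATP synthase, together with the RNAs needed to translate them inside the organelle. A single nuclear-encoded polymerase, POLRMT, transcribes each strand into long precursors, which are cut mostly at the transfer RNAs that lie between the other genes. The levels of the single RNAs then depend on their processing, polyadenylation, stability and decay, and hepatocytes, which are rich in mitochondria, hold much of this RNA.

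Copies of mitochondrial DNA also lie in nuclear chromosomes, and they bear on how reads can be assigned. In the GENCODE M21 annotation of GRCm38, 9 genes outside the mitochondrial chromosome matched a mitochondrial gene over at least 80% of their length at 90% identity or more and reached 1 CPM in a library. A block of 7 unprocessed pseudogenes lies on the minus strand of chromosome 1, chr1:24611535-24616197, 4663 bases long. From its mt-Co1 end to its mt-Nd4 end it holds Gm29216 (a copy of part of mt-Co1), Gm28661 (mt-Co2), Gm10925 (mt-Atp6), Gm28437 (mt-Co3), Gm28438 (mt-Nd3), Gm10222 (mt-Nd4l) and Gm28439 (part of mt-Nd4). Chromosome 2 holds Gm13340, 97.6% identical to mt-Co1, and Gm13341, 95.9% identical to mt-Co2. In all, 5 of the chromosome 1 copies (Gm28661, Gm10925, Gm28437, Gm10222 and Gm28439) matched with no mismatch over 681, 678, 783, 294 and 876 bases. The other 2 had a single mismatch each, A1066T in Gm29216 and T3C in Gm28438 (the mitochondrial gene's base, the position from 1 at its 5′ end, then the base of the copy). The first 60 bases of mt-Nd3 and Gm28438 are printed because the division of their counts moved most between groups; the capital marks the base at which they differ.
mt-Nd3: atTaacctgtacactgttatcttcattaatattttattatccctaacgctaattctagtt
Gm28438: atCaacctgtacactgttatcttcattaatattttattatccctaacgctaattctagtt
Past that position the 2 genes have the same sequence up to the end of Gm28438, 3 bases short of the end of mt-Nd3, so a read from there matches both.

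Mitochondrial genes took a smaller share of the counts in both cisplatin groups than in CON. Rows named mt- held 32.5%, 25.8% and 36.8% of all counts in CON_1 to CON_3, 16.3%, 12.99% and 11.2% in CPT_1 to CPT_3, and 9.79%, 9.80% and 11.4% in AT3_1 to AT3_3. Every CON library was above every CPT and AT3 library, while AT3_3 lay above CPT_3. The share differed by -18.2 percentage points in CPT from CON (two-sided exact permutation p = 0.1, the smallest that 3 against 3 libraries can give) and the difference of AT3 from CPT was -3.15 points (exact permutation p = 0.2), or -1.73 without CPT_1 and -4.32 without CPT_3. The nuclear copies added 12.5%, 10.5% and 13.2% to the CON libraries, 6.72%, 5.21% and 4.44% to the CPT libraries, and 3.99%, 3.88% and 3.89% to the AT3 libraries. Added together, mitochondrial genes and their copies reached 43.8% ± 6.93 (SD, n = 3) in CON, while CPT stood at 18.9% ± 3.78 and AT3 at 14.3% ± 0.922. On this sum no AT3 library (13.7% to 15.3%) reached the lowest CPT library (15.6%), again at the smallest exact permutation p of 0.1.

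**Figure D1:**
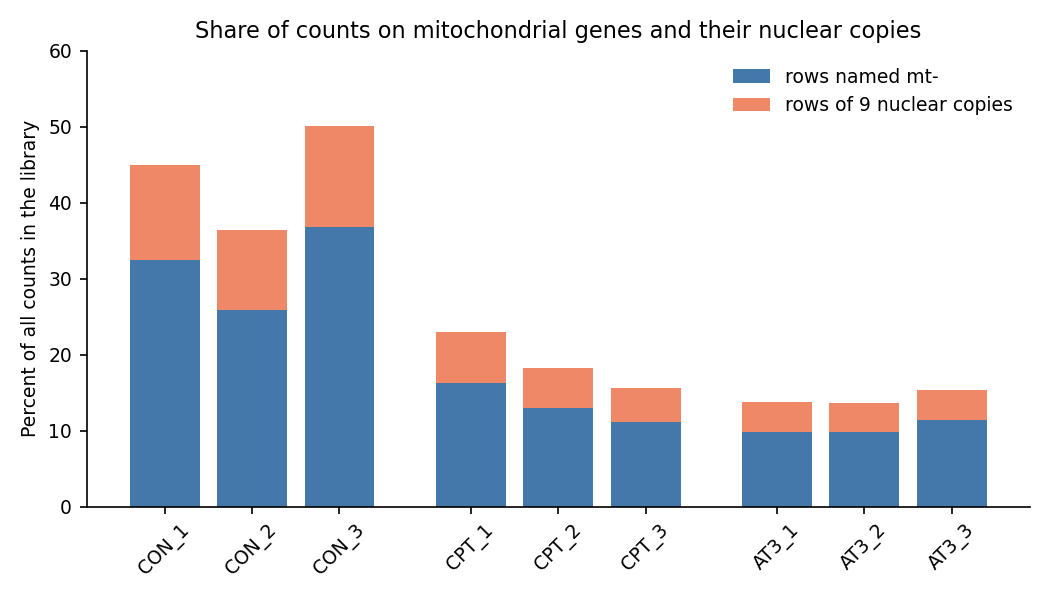
Percent of all counts in each of the 9 libraries that fell on rows named mt- (blue) and on the 9 nuclear copies (orange, stacked). The stacked bars reach 36.4% to 50.1% for CON, 15.6% to 23.0% for CPT and 13.7% to 15.3% for AT3.

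Nearly all of this RNA was messenger RNA in each group. Of all counts, the 13 messenger RNA genes held 30.9% ± 5.43 (SD, n = 3) in CON, against 13.2% ± 2.56 for CPT and 10.2% ± 0.935 for AT3. Ribosomal RNA genes held 0.760% ± 0.113, 0.321% ± 0.0704 and 0.168% ± 0.0110 in the same order, and transfer RNA genes at most 0.00730% in any library. The library kit is an mRNA kit per the labels, and these shares are those of the prepared libraries and not of the RNA in the cells.

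The division of counts between a mitochondrial gene and its copy differed among the groups for some genes. For mt-Nd3, 52.8%, 53.8% and 54.0% of the counts shared with Gm28438 were assigned to the mitochondrial row in CON, 36.7%, 38.1% and 33.2% in CPT, and 28.1%, 28.6% and 27.8% in AT3. No library of one group overlapped those of another. For mt-Atp6 the percentages were 35.0%, 39.0% and 39.2% in CON, 25.0%, 26.5% and 28.1% in CPT, and 19.6%, 23.2% and 19.4% in AT3, again without overlap. For mt-Nd4l the CON libraries ranged from 50.2% to 53.7%, the CPT libraries from 38.3% to 44.3%, and the AT3 libraries from 30.4% to 39.0%, where the last 2 groups overlapped. The copies held most counts of mt-Co2 (6.46% to 7.90% on the mitochondrial row over all libraries) and mt-Co3 (4.78% to 10.1%). By contrast, mt-Co1 kept at least 97.8% and mt-Nd4 at least 97.7% of their counts in every library. The copy of part of mt-Co1, Gm29216, ranged from 596 counts in CPT_1 to 104769 in CON_3, and Gm28439 was at 0 in 7 libraries but at 941 counts in CPT_2 and 4475 in AT3_3. Because of these divisions, log2 fold changes of genes with a copy in CPT against CON are given below for the own row and for the sum of gene and copies, and CPM for the own row; the sums were chosen after the data were seen.

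**Figure D2:**
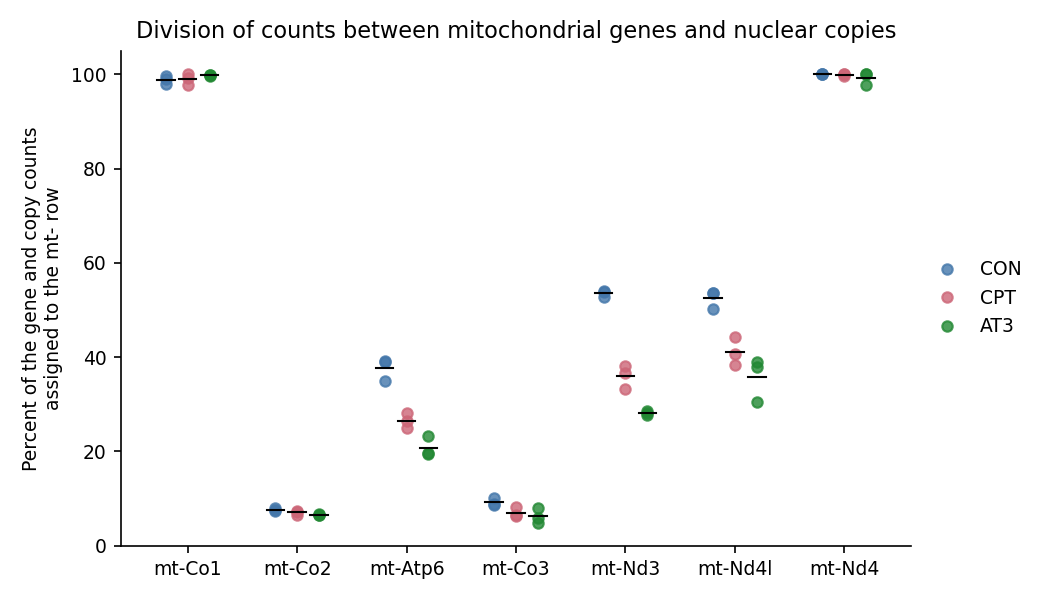
Percent of the summed counts of 7 mitochondrial genes and their nuclear copies that was assigned to the mitochondrial row; each point is a library and each black bar a group mean (n = 3). For mt-Nd3 the group means are 53.5% in CON, 36.0% in CPT and 28.2% in AT3.

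In CPT against CON, which compares cisplatin-injured with untreated livers, the mitochondrial transcripts fell together. Genes were tested with edgeR's quasi-likelihood test on all 13686 genes that passed a filter on low counts, and are called here at an adjusted p below 0.05. Of the 37 mitochondrial genes, 20 passed the filter: all messenger and ribosomal RNA genes and 5 transfer RNA genes. Lower in CPT were 19 of these 20, beside 30.8% of all genes tested, and 0 were higher. Their median log2 fold change was -1.75, against -0.02 over all genes tested, and with copies summed -1.61. The count with copies summed was also 19 of 20, beside 30.8%. All 20 kept the CPT and CON libraries apart, beside 64.2% of all genes tested. The tests rest on scaling by the trimmed mean of M values (TMM); with scaling to total counts the median of all genes moved to 0.36 (5945 higher and 2227 lower calls, against 4107 and 4219) and that of the mitochondrial genes to -1.33, which is -1.69 relative to all genes, with 18 of 20 lower.

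**Figure D3:**
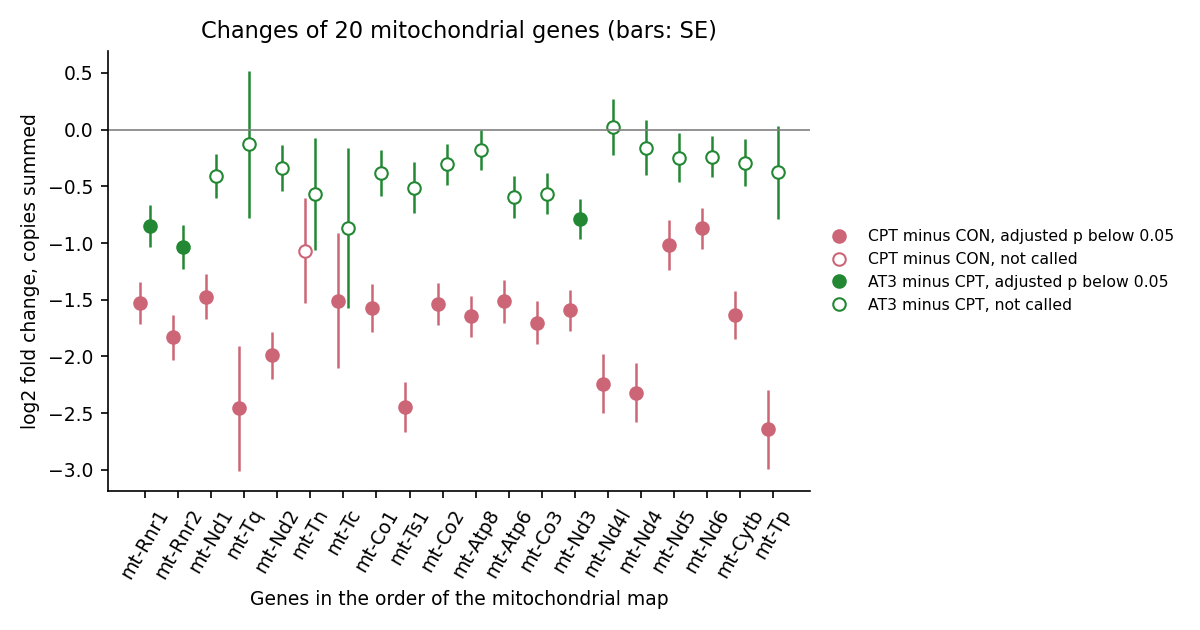
log2 fold changes ± SE from edgeR of the 20 tested mitochondrial genes with copies summed, in map order, for CPT minus CON (red) and AT3 minus CPT (green); filled points are called at adjusted p below 0.05. All CPT minus CON values lie below 0, from -2.64 for mt-Tp to -0.87 for mt-Nd6, while AT3 minus CPT values run from -1.04 for mt-Rnr2 to 0.02 for mt-Nd4l.

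Counts of the ribosomal RNAs of the mitochondrial ribosome fell in these mRNA kit libraries, those of the larger one further. They measure only the part of these RNAs that entered the libraries. Whether that part differed between groups was not tested. mt-Rnr1 (ENSMUSG00000064337, chrM:70-1024), the 12S RNA of the small subunit, stood at 4504, 3542 and 6239 CPM in CON, 1946, 1734 and 1278 CPM in CPT, and 824, 903 and 1021 CPM in AT3. mt-Rnr2 (ENSMUSG00000064339, chrM:1094-2675), the 16S RNA of the large subunit, stood at 4304, 3382 and 5969 CPM in CON, 1488, 1438 and 913 CPM in CPT, and 583, 606 and 682 CPM in AT3. For both genes the groups formed 3 steps with no overlap. In CPT against CON the log2 fold change was -1.53 ± 0.19 (SE) for mt-Rnr1 and -1.83 ± 0.20 for mt-Rnr2, with edgeR adjusted p = 4.53e-06 and 1.23e-06. The ratio of mt-Rnr2 to mt-Rnr1 counts, which does not depend on scaling, was 0.956, 0.955 and 0.957 in CON, 0.765, 0.829 and 0.714 in CPT, and 0.708, 0.671 and 0.668 in AT3. It was nearly constant over the CON libraries and lower without overlap in CPT and in AT3, each comparison being at the smallest exact permutation p of 0.1. None of the 9 nuclear copies matches either gene.

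Among the 7 subunits of complex I (NADH dehydrogenase, which passes electrons from NADH to ubiquinone), all fell in CPT against CON, over a wide range. mt-Nd4 (chrM:10167-11544) stood at 32974, 16863 and 40859 CPM in CON against 6355, 6455 and 5345 CPM in CPT. Its CON libraries differed among themselves by more than the CPT ones, and all were above them. The log2 fold change was -2.32 ± 0.25 (SE, edgeR adjusted p = 1.33e-06) on its own row. With Gm28439 added it was -2.32 ± 0.26 (edgeR adjusted p = 1.35e-06). mt-Nd4l, which overlaps mt-Nd4 by 7 bases on the same strand, gave -2.59 ± 0.22 on its own row and -2.24 ± 0.26 with Gm10222 added. mt-Nd2, the next strongest by the sums, stood at 36559, 24730 and 50982 CPM in CON and 10815, 9114 and 8333 CPM in CPT (log2 fold change -1.99 ± 0.21). mt-Nd1, the complex I gene nearest to the ribosomal RNA genes, gave -1.47 ± 0.20. For mt-Nd3 the own row gave -2.16 ± 0.20 and the sum with Gm28438 -1.59 ± 0.18 on the log2 scale, a 3.02-fold in place of a 4.46-fold lower level.

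The smallest falls were those of mt-Nd5 and mt-Nd6, which meet end to end on opposite strands. mt-Nd5 (chrM:11742-13565, plus strand) stood at 9312, 6673 and 12126 CPM in CON, 6232, 3976 and 3674 CPM in CPT, and 3347, 3584 and 4757 CPM in AT3. mt-Nd6 (chrM:13552-14070), the only messenger RNA gene on the minus strand, stood at 2707, 2250 and 3848 CPM in CON, 2023, 1417 and 1373 CPM in CPT, and 1262, 1273 and 1538 CPM in AT3. The CON libraries lay above the CPT ones, CPT_1 being close to CON_2 for both genes. Log2 fold changes for CPT against CON were -1.02 ± 0.22 (SE; edgeR adjusted p = 0.000902) for mt-Nd5 and -0.87 ± 0.18 (edgeR adjusted p = 0.000746) for mt-Nd6. On log2(TPM + 1) with limma neither was called (-0.41 for mt-Nd5 and -0.23 for mt-Nd6), and as a percent of all counts mt-Nd5 overlapped between CPT and CON (exact permutation p = 0.2). The annotated genes share 14 bases, shown in capitals at the last 30 bases of each gene, printed 5′ to 3′ on its own strand.
end of mt-Nd5: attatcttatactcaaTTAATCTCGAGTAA
end of mt-Nd6: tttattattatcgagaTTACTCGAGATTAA
The capitals of one line are the reverse complement of those of the other. No label says that counting used strand, so reads of the 2 genes cannot be told apart there. Over the rest of mt-Nd6, too, reads of its row cannot be told apart from plus-strand RNA at the same place. The mt-Nd6 values may therefore not be those of the minus-strand transcript alone. The ratio of mt-Nd6 to mt-Nd5 counts overlapped among the groups: CON ranged from 0.291 to 0.337, CPT from 0.325 to 0.374, and AT3 from 0.323 to 0.377.

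mt-Cytb (chrM:14145-15288), the cytochrome b subunit of complex III, stood at 22988, 14861 and 29443 CPM in CON, 9118, 6853 and 5731 CPM in CPT, and 5697, 5490 and 6543 CPM in AT3. Its log2 fold change in CPT against CON was -1.63 ± 0.21 (SE), with edgeR adjusted p = 7.84e-06, and CPT and AT3 overlapped. The 3 subunits of complex IV (cytochrome c oxidase, the enzyme that reduces oxygen) fell by similar amounts once copies were added. mt-Co1 (chrM:5328-6872), the catalytic subunit and the most abundant mitochondrial transcript per base, stood at 226547, 156077 and 289872 CPM in CON, 95218, 69088 and 62914 CPM in CPT, and 53595, 53709 and 68145 CPM in AT3. The log2 fold change of mt-Co1 was -1.57 ± 0.21 on its own row and with copies. For mt-Co2, which carries the copper centre that accepts electrons from cytochrome c, the own row gave -1.67 ± 0.18 and the sum -1.53 ± 0.19. For mt-Co3 the own row, which held at most 10.1% of the counts, gave -2.12 ± 0.24, and the sum -1.70 ± 0.19.

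The 2 subunits of ATP synthase are read from 1 transcript with overlapping reading frames. The gene mt-Atp8 (chrM:7766-7969), a short membrane subunit, has no annotated copy among the 9, whereas mt-Atp6 (chrM:7927-8607), the subunit of the proton channel, has Gm10925. The last 43 bases of mt-Atp8, in capitals, are also the first of mt-Atp6.
mt-Atp8: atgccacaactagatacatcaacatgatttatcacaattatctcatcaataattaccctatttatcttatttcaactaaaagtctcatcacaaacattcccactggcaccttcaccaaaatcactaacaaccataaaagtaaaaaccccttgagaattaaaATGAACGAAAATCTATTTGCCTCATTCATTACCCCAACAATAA
mt-Atp8 stood at 1790, 1459 and 2045 CPM in CON, 725, 577 and 391 CPM in CPT, and 529, 456 and 511 CPM in AT3. CON lay above the rest, and AT3 lay within the range of CPT. The log2 fold change in CPT against CON was -1.64 ± 0.18 (SE) for mt-Atp8, and for mt-Atp6 -2.04 ± 0.18 on its own row and -1.52 ± 0.19 with the copy. The ratio of mt-Atp6 with its copy to mt-Atp8 ranged from 16.4 to 18.6 in CON, from 18.0 to 21.1 in CPT and from 14.0 to 15.1 in AT3, where AT3 overlapped neither of the others. These are ratios of counts, not divided by gene length (681 and 204 bases), so they are not ratios of molecules. Whether the length of the sequenced fragments differed between groups was not tested.

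Transfer RNAs are 59 to 75 bases long, and apart from mt-Ts1 none had more than 67 counts in a library. All 22 were listed at 0 TPM in every library, also mt-Ts1 and the 13 others that had estimated counts, so a TPM of 0 does not show that one was not detected. Of the 17 that were not tested, 8 had no count in any library and the highest count was 19. The 8 transfer RNA genes on the minus strand held 98.5% of all transfer RNA counts, most of them on mt-Ts1 alone. These 8 included all 5 that were tested (mt-Tq, mt-Tn, mt-Tc, mt-Ts1 and mt-Tp). The 14 on the plus strand, the strand of most messenger RNAs, held 94 counts over the 9 libraries. Since no label says that counting used strand, reads of these genes cannot be told apart from RNA of the opposite strand at the same place. The 2 with the most counts are printed here; in mt-Ts1 (chrM:6870-6938), a serine transfer RNA, capitals mark the 3 bases that lie opposite the end of mt-Co1, and mt-Tp (chrM:15356-15422) is the proline transfer RNA.
mt-Ts1: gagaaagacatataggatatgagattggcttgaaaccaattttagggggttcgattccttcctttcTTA
mt-Tp: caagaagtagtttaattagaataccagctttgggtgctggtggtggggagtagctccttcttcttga
mt-Ts1 had 1391, 1206 and 1144 counts in CON, 392, 347 and 263 in CPT, and 250, 169 and 307 in AT3. CON libraries were well above the others, and CPT and AT3 overlapped. Its log2 fold change in CPT against CON was -2.45 ± 0.22 (SE; edgeR adjusted p = 1.29e-07). Relative to the gene on the other strand, there were 0.341, 0.302 and 0.218 counts of mt-Ts1 per 1000 counts of mt-Co1 and its copies in CON, 0.145, 0.155 and 0.157 in CPT, and 0.153, 0.0984 and 0.161 in AT3. mt-Tp had 67, 62 and 41 counts in CON, 14, 17 and 8 in CPT, and 14, 8 and 9 in AT3, with a log2 fold change of -2.64 ± 0.35 in CPT against CON. The glutamine transfer RNA mt-Tq gave -2.46 ± 0.55 and the cysteine transfer RNA mt-Tc -1.51 ± 0.59 at 1 to 34 counts a library. The asparagine transfer RNA mt-Tn, at -1.07 ± 0.46, was not called (edgeR adjusted p = 0.0559).

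The comparison of AT3 with CPT asks what differs under the same injury label. Lower in AT3 were 4 of the 20 tested mitochondrial genes, beside 2.22% of all genes tested, and 0 were higher; the median log2 fold change was -0.38, against 0 over all genes tested. The 4 were mt-Nd3, mt-Atp6, mt-Rnr2 and mt-Rnr1. mt-Rnr2 gave a log2 fold change of -1.04 ± 0.20 (SE; edgeR adjusted p = 0.00876) and mt-Rnr1 -0.85 ± 0.19 (edgeR adjusted p = 0.0175); neither has a copy. mt-Nd3 gave -1.15 ± 0.19 (edgeR adjusted p = 0.00400) on its own row and -0.79 ± 0.18 (edgeR adjusted p = 0.0195) with Gm28438. mt-Atp6 gave -0.94 ± 0.17 (edgeR adjusted p = 0.00693) on its own row, and -0.59 ± 0.18 with its copy, where it was not called (edgeR adjusted p = 0.0767). With copies summed 3 genes were thus lower, beside 2.22%. The number changed when 1 library was left out. Without AT3_1 or without AT3_2 it was 2 on own rows. With copies summed it was 0 without AT3_1, 1 without AT3_2, CPT_1 or CPT_2, and 5 without CPT_3. The calls over all genes changed as well. On own rows they went from 641 of 13686 to 178 of 14158 without AT3_1 and 172 of 14138 without AT3_2. With copies summed they were 181 of 14149 without AT3_1 and 1331 of 14135 without CPT_3. Groups did not overlap for 5 of the 20 genes, beside 27.0% of all genes tested.

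The other mitochondrial genes were not called in this comparison. Own-row values ran from -0.71 for mt-Co3 to -0.17 for mt-Nd4 among the messenger RNAs that were not called, and from -0.87 ± 0.70 (SE) for mt-Tc to -0.13 ± 0.65 for mt-Tq among transfer RNAs. mt-Nd4l was at -0.22 ± 0.21 on its own row and at 0.02 ± 0.25 with its copy. Missing the threshold does not show that these genes were equal in AT3 and CPT. As a percent of the counts of mitochondrial genes, ribosomal RNA was 2.25%, 2.58% and 2.41% in CON, 2.24%, 2.75% and 2.15% in CPT, and 1.60%, 1.74% and 1.56% in AT3. AT3 was lower than either group without overlap, while CPT and CON overlapped (exact permutation p = 0.9). These are percentages of the prepared mRNA kit libraries and not of the RNA in the cells.

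In AT3 against CON all 20 tested genes fell, beside 32.9% of all genes tested that were lower, and none overlapped between the groups, beside 70.3% of all genes tested, with a median log2 fold change of -2.38 (-0.04 over all genes tested). With copies summed all 20 fell too, beside 32.9%, the median was -2.24, and values ran from -3.02 for mt-Tp to -1.11 for mt-Nd6. mt-Rnr2 gave -2.87 ± 0.21 (SE), a 7.30-fold lower level, and mt-Nd3 -3.31 ± 0.21 on its own row and -2.38 ± 0.18 with its copy. This comparison shares the CON libraries with CPT against CON and the AT3 libraries with AT3 against CPT, so it is not independent of them.

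The make-up of the mitochondrial RNA also differed between CON and CPT, taken as percent of the counts of all mitochondrial genes and copies. mt-Co1 with its copies was 42.1% ± 0.720 (SD, n = 3) in CON and, without overlap, 44.1% ± 1.02 in CPT; it was 44.7% ± 1.63 in AT3. mt-Nd5 was 1.71%, 1.77% and 1.76% in CON, 2.88%, 2.46% and 2.58% in CPT, and 2.70%, 2.96% and 3.24% in AT3. mt-Nd6 was 0.498%, 0.595% and 0.558% in CON, 0.935%, 0.878% and 0.964% in CPT, and 1.02%, 1.05% and 1.05% in AT3, 3 steps without overlap. On the other side, mt-Nd2 went from 6.89% ± 0.444 in CON to 5.50% ± 0.446 in CPT and 5.69% ± 0.178 in AT3, and mt-Nd4 from 5.48% ± 0.889 to 3.57% ± 0.563 and 4.10% ± 0.652, AT3 overlapping CON for mt-Nd4. CPT and CON did not overlap for 8 of the 15 messenger and ribosomal RNA genes on this measure (mt-Nd1, mt-Nd2, mt-Co1, mt-Co2, mt-Nd4l, mt-Nd4, mt-Nd5 and mt-Nd6), each at the smallest exact permutation p of 0.1. In CPM, a different measure, 64.2% of all genes tested did not overlap, so the count of 8 does not set these genes apart. Percentages of one total also depend on each other, so the 8 are not separate results. The ratio of mt-Nd5 to mt-Nd4, neighbours in the map on the same strand, was 0.282, 0.396 and 0.297 in CON against 0.981, 0.613 and 0.687 in CPT and 0.695, 0.822 and 0.670 in AT3. Both cisplatin groups were above CON and overlapped each other.

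**Figure D4:**
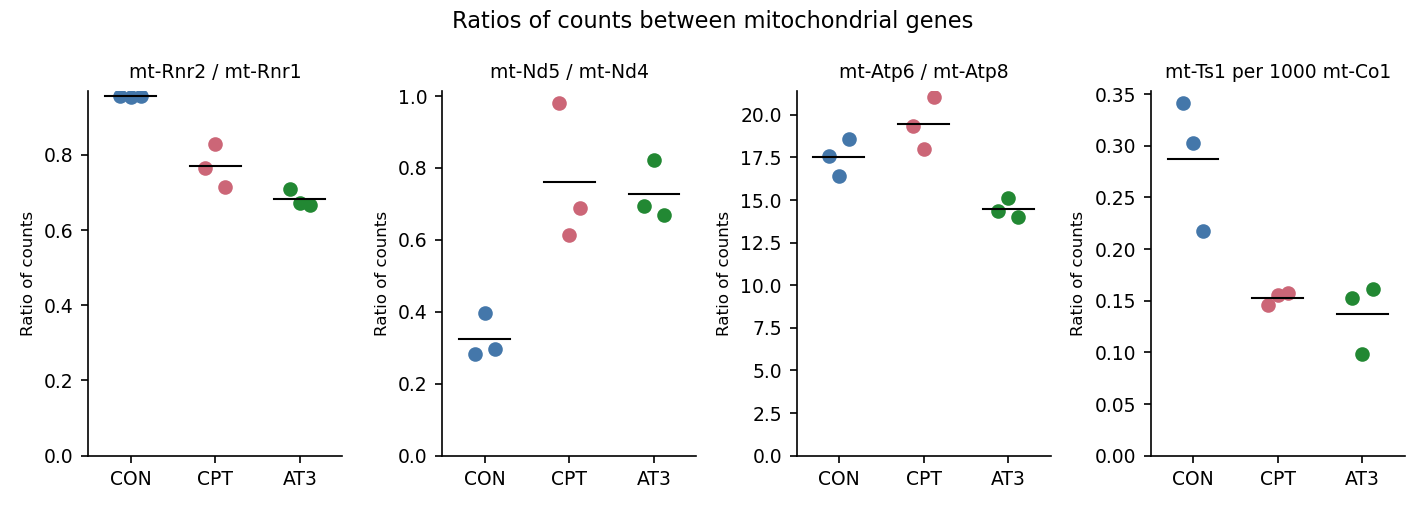
Ratios of estimated counts between mitochondrial genes in each library, copies included where the gene has any; points are libraries, black bars group means (n = 3), and each vertical axis starts at 0. mt-Rnr2 to mt-Rnr1 has group means of 0.956 in CON, 0.769 in CPT and 0.682 in AT3, and mt-Nd5 to mt-Nd4 is 0.325 in CON, 0.760 in CPT and 0.729 in AT3.

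The order of levels per length was much the same in the 3 groups. In CPM of the unscaled totals divided by the gene's length in kilobases, copies included, mt-Co1 ranked first, mt-Co3 second, mt-Co2 next and mt-Atp6 after it in all 9 libraries, and mt-Rnr2 was last of the 15 in all 9. mt-Co1 averaged 119713 in CON, 54005 in CPT and 41345 in AT3 on this scale, and mt-Co3 94139, 38483 and 26080; the 2 overlapped in CON and in CPT but not in AT3. mt-Nd4 averaged 17702 in CON, 4821 in CPT and 4277 in AT3, rank 7, 9 and 9 by these means, although in CON_2 it was already at rank 9. mt-Nd4l, the gene whose rank differed most, averaged 4674, 1339 and 1344, at rank 11, 14 and 13, and was at rank 14 in CON_2 too. mt-Nd6 was at rank 12, 10 and 10, with rank 11 in libraries of all 3 groups. These ranks rest on division by the full gene length, and the authors' TPM places the short mt-Atp8 (204 bases) otherwise. It was at rank 10 to 12 here, below mt-Nd2 and mt-Nd1 at rank 5 or 6. Yet its highest TPM in any library was 54109, against 32283 for mt-Nd2 and 21086 for mt-Nd1. The order is thus not settled for short genes. In CON the neighbours from mt-Nd1 through mt-Nd4 and mt-Nd3 to mt-Cytb overlapped in range, as did those from mt-Nd4l through mt-Nd6 and mt-Nd5 to mt-Rnr1, so their order there is not resolved.

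Nuclear genes for subunits of the same complexes mostly rose or were not called. Of 37 nuclear subunit genes of complex I, 23 rose, 6 fell and 8 were not called in CPT against CON, beside 30.0% of all genes tested that were higher. For complex III the numbers were 5, 1 and 3 of 9, for complex IV 8, 2 and 1 of 11, and for ATP synthase 10, 0 and 5 of 15. Median log2 fold changes were 0.42, 0.38, 0.47 and 0.71, against -1.59, -1.63, -1.57 and -1.58 for the mitochondrial genes of the same complexes with copies summed. In each complex every nuclear subunit lay above the highest mitochondrial one. The highest in each complex were Ndufb6 of complex I (log2 fold change 1.47 ± 0.11 (SE)), Uqcrh of complex III (1.49 ± 0.12), Cox7a2 of complex IV (2.03 ± 0.12) and Atp5b, the catalytic beta subunit of ATP synthase (1.94 ± 0.18). The lowest nuclear values were -0.72, -0.27, -0.43 and -0.12 in the same order of complexes. With scaling to total counts the 72 nuclear subunits divided into 54 higher and 1 lower, against 46 and 9 with TMM. All genes tested moved the same way between these scalings, from 30.0% higher and 30.8% lower with TMM to 43.4% and 16.3% with total counts. In AT3 against CPT, 2 were higher, 4 lower and 66 not called, beside 2.46% higher and 2.22% lower of all genes tested.

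**Figure D5:**
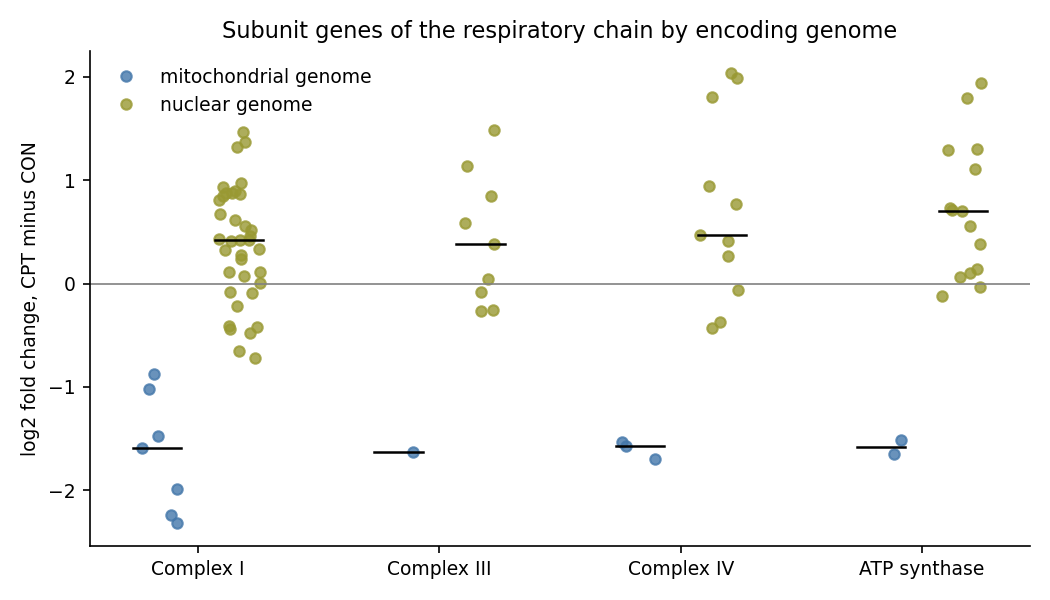
log2 fold changes from edgeR, CPT minus CON, of subunit genes of 4 complexes encoded in the mitochondrial genome (blue, copies summed) and in the nucleus (olive); each point is a gene and black bars are medians. All mitochondrial points lie between -2.32 and -0.87 and all nuclear points between -0.72 and 2.03.

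The nuclear genes that transcribe, maintain and process mitochondrial nucleic acids moved in both directions, with more calls higher than lower. Over all genes tested the calls were about even with TMM. Of 63 tested, 22 rose, 9 fell and 32 were not called in CPT against CON. Beside them, 30.0% of all genes tested were higher and 30.8% lower, 60.8% being called. With scaling to total counts the numbers were 38 higher and 1 lower, beside 43.4% and 16.3% of all genes tested. In AT3 against CON, 25 were higher, 12 lower and 26 not called. Beside them, 31.5% of all genes tested were higher and 32.9% lower, 64.4% being called. Among 16 genes of transcription and its regulators, 6 rose and 2 fell in CPT against CON, beside 30.0% and 30.8% of all genes tested. With total counts 9 rose and 0 fell, beside 43.4% and 16.3%. Ppargc1a, a coactivator of mitochondrial biogenesis, gave a log2 fold change of 1.70 ± 0.21 (SE). Its relative Pprc1 gave 1.37 ± 0.15 and the nuclear receptor gene Esrra 0.56 ± 0.10. The polymerase gene Polrmt fell by 0.59 on the log2 scale, while Tfam, whose product packages mitochondrial DNA and starts its transcription, was at 0.05 ± 0.10 and not called. Without TMM, Polrmt was at -0.20 and not called, and Tfam at 0.43 was called higher; both genes were picked after their values were seen. Among 13 genes of replication and maintenance, 3 rose and 3 fell, beside 30.0% and 30.8% of all genes tested. With total counts 5 rose and 1 fell, beside 43.4% and 16.3%. With TMM the helicase gene Twnk was at 0.56 ± 0.10, the topoisomerase gene Top1mt at 0.77 ± 0.12 and the nuclease gene Dna2 at -1.27 ± 0.18.

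Of 34 genes of RNA processing and decay, 13 rose, 4 fell and 17 were not called in CPT against CON, beside 30.0% higher and 30.8% lower of all genes tested. With total counts 24 rose and 0 fell, beside 43.4% and 16.3%. Ddx28, a helicase gene of ribosome assembly in the organelle, went from 4.88 ± 0.139 (SD, n = 3) to 38.4 ± 6.22 CPM, a log2 fold change of 2.97 ± 0.13 (SE). Hsd17b10, which encodes a subunit of the nuclease that frees the 5′ ends of transfer RNAs, gave 0.73 ± 0.09, and the oligoribonuclease gene Rexo2 0.78 ± 0.10. Lrpprc, whose product stabilises mitochondrial messenger RNAs, gave -0.52 ± 0.10, but -0.12 without TMM, where it was not called, and 0.07 on log2(TPM + 1); it too was picked after its value was seen. In AT3 against CPT 2 of the 63 genes were called, beside 4.68% of all genes tested, and both were higher: Fastkd1 (0.45 ± 0.11, edgeR adjusted p = 0.0262) and Grsf1, an RNA granule protein gene (0.38 ± 0.10, edgeR adjusted p = 0.0411). Neither was called without TMM or without CPT_1, CPT_2, AT3_1 or AT3_2.

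Of 16 nuclear genes for mitochondrial import, chaperones and other abundant proteins, 12 rose, 3 fell and 1 was not called in CPT against CON, beside 30.0% higher and 30.8% lower of all genes tested (13 and 0 with total counts, beside 43.4% and 16.3%). Among those that rose were the chaperone gene Hspa9 (log2 fold change 1.58 ± 0.13 (SE)) and the import receptor gene Tomm20 (1.32 ± 0.11).

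Marker genes of cell types moved with the groups as well. The summed level of 10 hepatocyte markers was 78221 to 84382 CPM for CON, 79716 to 103465 CPM for CPT and 116863 to 125029 CPM for AT3, so that CON and CPT overlapped. Before TMM scaling the sums were 56795 to 81266, 89960 to 113317 and 130773 to 131856, without overlap. The list did not move as one: group means of 4 of the 10 markers were lower in CPT than in CON, among them Apoa1, at 16798 to 18944 CPM in CON and 8688 to 10427 CPM in CPT, while Ahsg went the other way, from 2735 to 3619 CPM in CON to 10803 to 15224 CPM in CPT. Summed levels of 7 erythroid markers spanned 797 to 908 CPM among CON libraries, 42.7 to 50.9 among CPT libraries and 38.4 to 44.5 among AT3 libraries, and those of 8 sinusoidal endothelial markers 102.6 to 103.4, 10.9 to 15.7 and 11.9 to 20.3 CPM. Summed over 8 markers each, stellate cell and fibroblast genes were at 339.6 to 409.7, 65.6 to 73.5 and 44.7 to 58.4 CPM, Kupffer cell and macrophage genes at 36.5 to 47.9, 17.3 to 20.1 and 19.0 to 23.1 CPM, neutrophil genes at 4.25 to 5.03, 24.9 to 51.9 and 13.2 to 13.8 CPM, and lymphocyte genes at 2.25 to 2.78, 0.385 to 0.747 and 0.230 to 0.537 CPM. The 6 cholangiocyte markers summed to 15.8 to 20.9, 17.3 to 22.03 and 21.6 to 25.3 CPM, with Cftr at 0 in all libraries, and 7 muscle markers to at most 2.20 CPM, with Myh4, Myh6 and Tnnt3 at 0. Some of these lists did not move as one either. Group means were lower in CPT than in CON for 7 of 8 endothelial, 6 of 8 Kupffer and macrophage and 6 of 8 lymphocyte markers. For the erythroid list it was 7 of 7, for stellate cells and fibroblasts 8 of 8, for neutrophils 0 of 8 and for cholangiocytes 3 of 6. The part of these cell types in the mitochondrial values was not tested. In bulk tissue, fewer cells of a type and less RNA per cell cannot be told apart. Of 8 tested nuclear-retained RNAs, 1 rose and 4 fell in CPT against CON, beside 30.0% and 30.8% of all genes tested, and both measured transcripts that can carry ribosomal RNA sequence, AY036118 and Lars2, fell; their part was not tested either.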

How the data were processed

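Liver RNA from the 9 libraries described above was measured by RNA-seq, with a Qiagen column kit and a SMARTer library kit, per the labels' protocols; whether the kit keeps strand is not stated. Aligner and counting tool: not given in the sources used here. Estimated counts per gene were deposited by the authors, and a separate file holds TPM, also computed by the authors. In all, 3 builds (GRCm38, GRCm39, mm10) appear in the submitters' processing notes without a role. Counts were rounded for the tests, since 7.96% to 9.55% of a library's values were not whole. Columns with the authors' group means entered no calculation. GENCODE M21 (GRCm38) gave coordinates and sequences; it contains 91.3% of the table's identifiers and all 37 mitochondrial genes, each with the length given in the table.

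Tests across genes used edgeR 4.0.16 in R 4.3.3: TMM, filterByExpr, one quasi-likelihood fit to the 9 libraries, and Benjamini-Hochberg adjustment over 13686 genes, with calls at adjusted p below 0.05. TMM factors lay between 0.726 and 0.963 for CON, 1.07 and 1.13 for CPT, and 1.05 and 1.13 for AT3, and CPM values include them unless said otherwise. Shares and ratios came from unrounded counts, with two-sided exact permutation tests. Nuclear copies were found with BLAST+ 2.17.0 by aligning GENCODE transcripts to the mitochondrial sequence joined from its annotated genes; 16 met the identity and length limits and 9 also the minimum of 1 CPM. Chi-square per degree of freedom between replicates was 7.07 to 97.0. The fit was tested on simulated data. Gene lists had 250 entries, of which 245 matched the table; the result of 1 list is not reported here. Mitochondrial genes and lists were chosen with earlier results of these data known. All tested mitochondrial genes could be named, and from each list up to 4 genes with the smallest p in CPT against CON and 2 in AT3 against CPT. Alternatives were DESeq2 1.42.0 and its size factors, total counts, scaling over nuclear genes, no filter, only the 6 libraries compared, limma 3.58.1 on log2(TPM + 1) and log2(TPM + 0.1), a block for the replicate number, leaving out each library and, chosen after seeing the data, copies summed.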

Additional observations from a re-analysis of the deposited data

How the results depend on the processing

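All 630 fits of the 20 tested mitochondrial genes over 32 settings gave a log2 fold change below 0 in CPT against CON. Of these, 588 were called. In AT3 against CON it was 630 and 628, and in AT3 against CPT 605 of 625 and 102. The settings refit the same 9 libraries or some of them, so the fits are not independent. Of all genes tested, the main fit called 60.8%, 64.4% and 4.68% in these comparisons. In AT3 against CPT the settings called from 34 of 13679 (log2(TPM + 0.1)) to 1331 of 14135 (copies summed, without CPT_3). The median of mitochondrial genes in CPT against CON was -1.33 with total counts, -1.02 on either TPM scale (15 genes, as transfer RNAs are at 0 TPM; -1.31 and -1.52 relative to the median of all genes, for log2(TPM + 1) and log2(TPM + 0.1)), and -1.20 with copies summed and total counts; in AT3 against CON it was -1.58 on either TPM scale and -1.82 with copies summed and total counts. Leaving out 1 library gave medians of -1.93 to -1.55 and -2.57 to -2.09. The difference in ribosomal share between CPT and CON, -0.0295 points, was 0.0507 by TPM and ran from -0.216 to 0.0859 without 1 library, so it has no stable direction. The calls in AT3 against CPT, 4, were 8 with no filter on low counts, 0 on log2(TPM + 0.1) and 2 to 5 without 1 library. With copies summed, 3 became 0 to 5. Over all genes the calls went from 641 of 13686 to 1174 of 25394 with no filter and 34 of 13679 on log2(TPM + 0.1). The 2 called nuclear factors became 0 with total counts and on both TPM scales, and 0 to 2 without 1 library. Over all genes 186 of 13686 were called with total counts, 79 of 13679 on log2(TPM + 1) and 34 on log2(TPM + 0.1). In AT3 against CPT the sign turned when 1 library was left out for mt-Tq (range -0.745 to 0.31), mt-Tn (-0.942 to 0.0127), mt-Atp8 (-0.382 to 0.0445) and mt-Nd5 (-0.414 to 0.0263). For mt-Nd4l with copies it was 0.0231, with -0.089 without CPT_3, -0.299 without AT3_3 and -0.0595 with the replicate block. In CPT against CON, Lrpprc was 0.068 and 0.0772 on the TPM scales. Same-numbered libraries correlated in their deviations at -0.04 to 0.08, and differently numbered ones at -0.06 to 0.04. On these ranges the numbers were not taken as pairs. Between CPT and AT3, however, the same-numbered pairs were at 0.05, 0.08 and 0.07, above all differently numbered ones (-0.06 to -0.02). A pairing of these 2 groups is therefore not excluded. With the replicate block 19, 4 and 20 genes were called in the 3 comparisons, or 19, 3 and 20 with copies summed. Medians of the mitochondrial genes were -1.74, -0.39 and -2.41. Of all 13686 genes tested on own rows, 8154, 451 and 8648 were called with the block. Depth limits the transfer RNAs, at 0 to 67 counts a library apart from mt-Ts1.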
